A study of Homo sapiens with 4 samples.

Results

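Lipoprotein lipase (LPL) and 9 other genes of lipid entry into endothelial cells were followed in GATA2/eGFP-positive endothelial cells with and without GFI1. The 10 genes are the lipases LPL and LIPG, the lipase anchor GPIHBP1, the fatty acid transporters CD36, SLC27A3 and SLC27A4, the fatty acid binding proteins FABP3, FABP4 and FABP5, and the nuclear receptor PPARG. They were found by gene symbol, and all 10 are among the 19912 gene identifiers of the count table. The set was selected on earlier results of the same GFI1-KO against WT comparison, in which LPL had passed the whole-table test. Values of that comparison for the 10 genes are therefore given as a description and not as a test.

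The endothelial cells were derived from H1, an established human embryonic stem cell line, and were positive for GATA2/eGFP in both groups. The groups differ in genotype: wild type (WT, 2 libraries) or GFI1 knockout (GFI1-KO, 2 libraries). The altered part of GFI1, the number of knockout clones, and whether the replicates came from separate cultures are not stated in the labels, so the p-values rest on a spread between libraries that may be technical only. GFI1 is a transcriptional repressor known for its role in blood formation, and the study set the transcriptomes of the 2 genotypes side by side.

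GFI1-KO replicate 1 was shallow, with 146584 counts, against 2239214 to 2417410 in the other 3 libraries. Levels are given as CPM, counts scaled to a common library size with TMM factors. A floor of 3 counts equals 19.9 CPM in GFI1-KO replicate 1 and 1.26 to 1.34 CPM in the other libraries. GFI1 itself was at 58.5 and 58.3 CPM in WT, and 19.9 and 19.6 CPM in the knockout libraries, on 3 and 44 counts (log2 fold change -1.57, SE 0.31, edgeR adjusted p = 0.0215). GATA2 was at 293 and 252 CPM in WT, and 139 and 124 CPM in the knockout libraries (-1.09, adjusted p = 0.0376). Of the 12 endothelial markers examined, all 12 passed the low-count filter, and their summed level was 6473 and 6663 CPM in WT, and 7883 and 9301 CPM in the knockout libraries.

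LPL splits the triglycerides of circulating lipoproteins into fatty acids at the luminal face of capillaries. In tissues it is mostly made by parenchymal cells such as adipocytes and muscle cells, and GPIHBP1 carries it across the endothelium and holds it there. Endothelial cells take up the released fatty acids with the help of CD36 and the SLC27 acyl-CoA synthetases, FABP proteins bind them in the cytosol, and PPARG is a lipid-sensing factor that activates several of these genes in adipocytes and macrophages.

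LPL was higher in both GFI1-KO libraries than in both WT libraries, while the levels of SLC27A3, SLC27A4 and FABP5 overlapped between genotypes. LPL (ENSG00000175445; chromosome 8, 19901717 to 19967259, plus strand, GRCh38) had 35 and 119 counts in WT, against 19 and 358 in the knockout. Scaled to library size these were 15.6 and 49.9 CPM in WT, and 126 and 159 CPM in the knockout libraries. Both GFI1-KO libraries lay above both WT libraries. As a ratio, the WT libraries differed from each other more than the GFI1-KO libraries did, while in CPM the spread was alike (SD 24.3 and 23.7). WT replicate 2 was 3.20 times WT replicate 1, and GFI1-KO replicate 2 was 1.27 times GFI1-KO replicate 1. The exact 95% counting intervals were 10.9 to 21.7 and 41.4 to 59.8 CPM in WT, and 75.8 to 197 and 143 to 177 CPM in the knockout. The intervals of the WT libraries did not overlap each other, and neither reached those of the GFI1-KO libraries.

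The mean LPL level was 32.8 ± 24.3 CPM in WT and 143 ± 23.7 CPM for the knockout (n = 2 each, SD). The log2 fold change was 2.18 (SE 0.38), with an edgeR adjusted p = 0.00962 over the 11380 genes tested; this is the value for which LPL was selected. Genes called changed at an adjusted p under 0.05 were 0.958% of those tested, and genes called higher 0.773%. LPL was the 1 member among them, and nothing is read from that count because the same comparison chose the set. Of all genes tested, 32 had a log2 fold change at or above that of LPL, LPL included, and 22 of these were called. The size of the LPL difference depended on which WT library stood for the group. Against WT replicate 1 the single GFI1-KO libraries were 8.05 and 10.2 times as high, and against WT replicate 2 they were 2.52 and 3.19 times as high. The log2 fold change was 3.24 (adjusted p = 4.76e-08) without WT replicate 2 and 1.57 (adjusted p = 0.0324) without WT replicate 1. With a library left out, 1 genotype has a single library that is assumed to vary like the others, and the spread comes from the 2 libraries of the other genotype alone. Those p-values are a description too, since LPL was selected on this comparison. In bulk RNA, a change in the share of cells with LPL transcripts and a change in the amount per cell cannot be told apart.

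**Figure D1:**
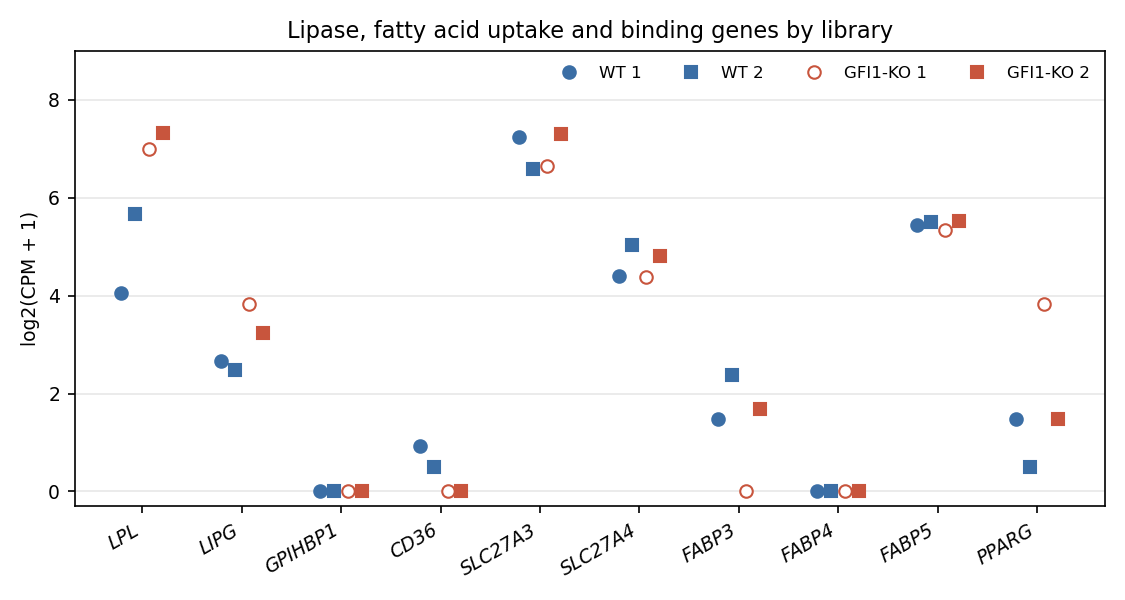
Level of each of the 10 genes in each library, as log2(CPM + 1); blue marks are WT, red marks GFI1-KO, circles replicate 1 and squares replicate 2, with an open circle for the shallow GFI1-KO replicate 1. LPL has both GFI1-KO marks above both WT marks, SLC27A3, SLC27A4 and FABP5 overlap between genotypes, and GPIHBP1 and FABP4 lie at 0 in all 4 libraries.

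LIPG encodes endothelial lipase, a relative of LPL that acts mainly on phospholipids of high-density lipoproteins and is made by endothelial cells themselves. LIPG had 12 and 11 counts in WT, against 2 and 19 in the knockout, or 5.36 and 4.62 CPM against 13.2 and 8.46 CPM. Both GFI1-KO values lay above both WT values, a pattern found in 18.6% of all genes tested, but the value of GFI1-KO replicate 1 rests on 2 counts and lies below its floor. The log2 fold change was 0.84 (SE 0.57, edgeR adjusted p = 0.770), and the ratio of pooled counts was 1.76 (exact 95% interval 0.927 to 3.33). That interval includes 1, so a difference in LIPG was not detectable at this depth. LIPG (ENSG00000101670) lies on chromosome 18, 49560699 to 49599182, plus strand, GRCh38.

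The RefSeq promoter windows of LIPG and SLC27A3 are shown because GFI1 is known to bind DNA at sites around the letters AATC, and these are the lipase with a window in the table and the transporter of highest level. The windows are 300 bases long around the RefSeq start, on build GRCh38.p14, plus strand: chr18:49561807-49562106 for LIPG and chr1:153775157-153775456 for SLC27A3. Capitals mark AATCA, searched on both strands (its reverse complement is TGATT).
LIPG: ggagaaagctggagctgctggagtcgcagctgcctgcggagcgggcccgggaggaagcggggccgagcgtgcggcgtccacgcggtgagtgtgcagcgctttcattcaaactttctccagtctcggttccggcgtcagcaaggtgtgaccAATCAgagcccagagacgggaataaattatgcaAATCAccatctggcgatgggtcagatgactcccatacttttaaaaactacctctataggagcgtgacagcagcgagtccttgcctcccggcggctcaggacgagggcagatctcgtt
SLC27A3: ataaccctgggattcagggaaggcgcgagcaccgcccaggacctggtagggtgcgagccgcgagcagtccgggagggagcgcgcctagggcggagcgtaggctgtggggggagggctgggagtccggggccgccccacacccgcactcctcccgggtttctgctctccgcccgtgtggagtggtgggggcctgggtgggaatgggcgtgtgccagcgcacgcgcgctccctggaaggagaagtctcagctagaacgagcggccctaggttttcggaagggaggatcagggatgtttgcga
The LIPG window held 2 matches to AATCA, which begin 100 and 67 bases before the start, and the SLC27A3 window held 0. The shorter AATC was not searched. Its reverse complement GATT does stand in the SLC27A3 window, so the 0 holds for AATCA only. A match occurred in 34.5% of the 35116 windows of the table. Windows were found for 6 of the 10 genes. A match stood in the 1 window of LIPG, in 5 of 6 windows of CD36 and in 2 of 6 of PPARG, and in 0 of the 1 window each of SLC27A3, SLC27A4 and FABP3. The windows of a gene can overlap, so a count over genes cannot be set against the share of windows. LPL, GPIHBP1, FABP4 and FABP5 were not matched to a window. A match of letters is not a binding site, and no binding was measured in these libraries.

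GPIHBP1, the protein that captures LPL for endothelium, was not detected. GPIHBP1 (ENSG00000277494; chromosome 8, 143213193 to 143217170, plus strand) had 0 counts in each library. By the floor of 3 counts, the level was at most 1.34 and 1.26 CPM in WT, and 19.9 and 1.34 CPM in the knockout libraries. The upper ends of the exact two-sided 95% intervals were somewhat higher, at 24.4 CPM for the shallow knockout library and 1.64 CPM for the deep one. In the deep GFI1-KO replicate 2, where LPL was at 159 CPM, GPIHBP1 thus lay under both limits. These limits cover counting error only and hold for reads that were counted.

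The scavenger receptor CD36, which takes up long-chain fatty acids in heart, muscle and fat endothelium, was scarce in both genotypes. CD36 (ENSG00000135218; chromosome 7, 80369575 to 80679277, plus strand) had 2 and 1 counts in WT, against 0 and 0 in the knockout, all below the floor, so no ratio is given. The SLC27 members were clearly present. SLC27A3, a fatty acid transport family member with acyl-CoA synthetase activity, had 336 and 228 counts in WT, against 15 and 353 in the knockout, or 150 and 95.7 CPM against 99.4 and 157 CPM. The libraries of each genotype spanned the same range, and the mean was 123 ± 38.4 CPM in WT and 128 ± 40.8 CPM for the knockout (n = 2 each, SD). The log2 fold change was 0.20 (SE 0.27, edgeR adjusted p = 0.936). The pooled-count ratio was 1.26 with a counting interval of 1.10 to 1.44. That interval excludes 1, but the spread between libraries of the same genotype is wider than the difference. The sign turned when WT replicate 2 (-0.11) or GFI1-KO replicate 2 (-0.30) was left out. SLC27A3 (ENSG00000143554; chromosome 1, 153774354 to 153780157, plus strand) shares 455 exonic bases with INTS3 on the same strand.

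SLC27A4, the broadly expressed long-chain fatty acid transporter, had 45 and 76 counts in WT, against 3 and 61 in the knockout. Its levels were 20.1 and 31.9 CPM in WT, and 19.9 and 27.2 CPM in the knockout libraries, and the groups overlapped. The GFI1-KO replicate 1 value rests on 3 counts, at the floor, with an exact 95% interval of 4.10 to 58.1 CPM. SLC27A4 (ENSG00000167114) lies on chromosome 9, 128340646 to 128361470, plus strand. The log2 fold change was -1.8e-05 (SE 0.37, edgeR adjusted p = 1.00), and the pooled-count ratio was 1.02 (exact 95% interval 0.741 to 1.39).

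Of the fatty acid binding proteins, FABP5 was the abundant one. FABP5, the epidermal form that is also made in many endothelia, had 95 and 105 counts in WT, against 6 and 101 in the knockout, or 42.4 and 44.1 CPM against 39.7 and 45.0 CPM. The 4 libraries lay closer together for FABP5 than for any other member with counts in all of them. However, the GFI1-KO replicate 1 value rests on 6 counts, with an exact 95% interval of 14.6 to 86.5 CPM. The log2 fold change was 0.03 (SE 0.28, edgeR adjusted p = 0.998), and the pooled-count ratio of 1.03 had an interval of 0.808 to 1.31. FABP5 (ENSG00000164687) lies on chromosome 8, 81280363 to 81284777, plus strand. The annotation holds 13 FABP5 pseudogenes and an antisense gene that shares 94 exonic bases, so reads of these copies may have been counted for FABP5 or dropped.

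FABP4, the adipocyte and capillary endothelial form and a PPARG target, had 0 counts in all 4 libraries, with the same limits as GPIHBP1; it (ENSG00000170323) lies on chromosome 8, 81478419 to 81483263, minus strand. FABP3, the heart and muscle form, had 4 and 10 counts in WT, against 0 and 5 in the knockout, a pooled-count ratio of 0.689 (exact 95% interval 0.194 to 2.02). For the 0 counts of the shallow library the floor is 19.9 CPM and the upper end of the exact interval 24.4 CPM, both above every other FABP3 value, so a difference in FABP3 (ENSG00000121769; chromosome 1, 31365625 to 31376850, minus strand) was not detectable at this depth.

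PPARG (ENSG00000132170; chromosome 3, 12287368 to 12434356, plus strand) had 4 and 1 counts in WT, against 2 and 4 in the knockout. The 13.2 CPM of GFI1-KO replicate 1 comes from 2 counts and lies below the floor, while GFI1-KO replicate 2, at 1.78 CPM, was level with WT replicate 1 at 1.79 CPM. The pooled-count ratio was 2.31 with an interval of 0.588 to 9.58, which holds both a fall and a rise. Of the 10 genes, 5 passed the low-count filter (LPL, LIPG, SLC27A3, SLC27A4 and FABP5), and GPIHBP1, CD36, FABP3, FABP4 and PPARG did not.

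**Figure D2:**
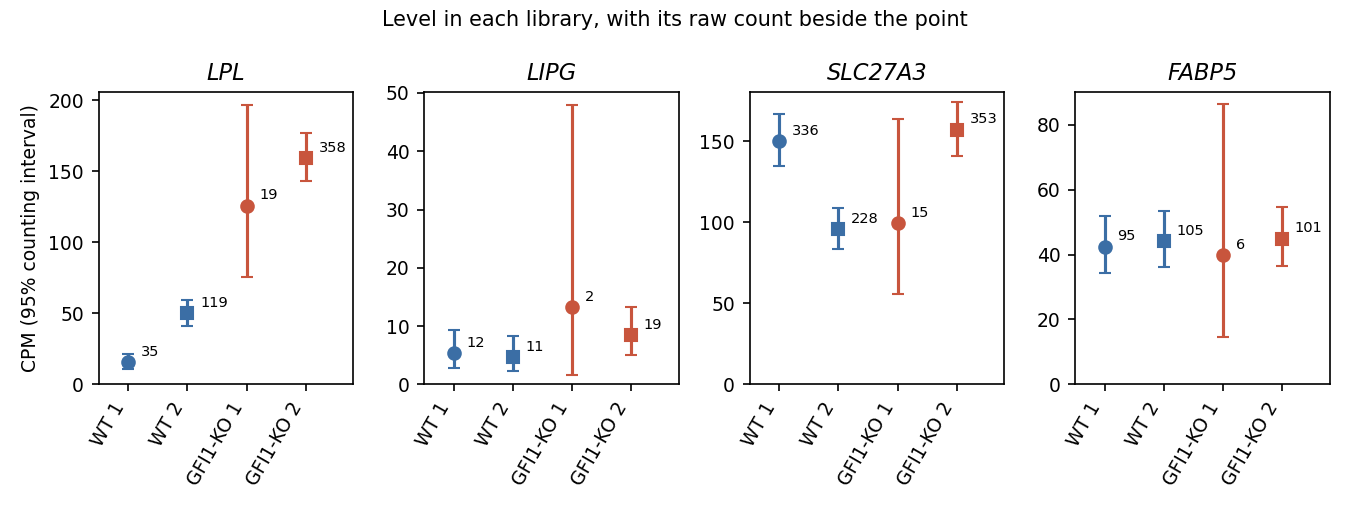
CPM of LPL, LIPG, SLC27A3 and FABP5 in each library, with exact 95% counting intervals as bars and the raw count beside each point; blue is WT and red is GFI1-KO. The LPL intervals separate the genotypes and also the WT libraries from each other. The bars cover counting error only and not the spread between libraries. The LIPG interval of GFI1-KO replicate 1 spans 1.60 to 47.9 CPM, and the SLC27A3 and FABP5 points overlap between genotypes.

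Per length of annotated exon (RPKM, CPM per kilobase of merged exons), the order of the members differed between genotypes at its upper end. In WT the highest mean was that of SLC27A3 (22.5 ± 7.03 RPKM), followed by FABP5 (20.8 ± 0.558), SLC27A4 (8.36 ± 2.68) and LPL (7.48 ± 5.54; SD, n = 2 each). SLC27A3 and FABP5 did not differ beyond their spread, nor did SLC27A4 and LPL, whose WT libraries stood at 3.57 and 11.4 RPKM. In GFI1-KO the highest mean was that of LPL (32.5 ± 5.40 RPKM), followed by SLC27A3 (23.4 ± 7.47), FABP5 (20.4 ± 1.77) and SLC27A4 (7.56 ± 1.66). LPL in GFI1-KO replicate 1 and SLC27A3 in GFI1-KO replicate 2 were both at 28.7 RPKM, so these neighbours touch. FABP3, LIPG, PPARG and CD36 had means of 2.92 RPKM or less in WT and of 1.66 RPKM or less in GFI1-KO. Among 19902 genes with a length, LPL ranked 8235 and 4097 by RPKM in the WT libraries and 1447 and 1174 in the GFI1-KO libraries.

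Of the tested genes whose products fold, activate or block LPL, 0 passed the edgeR test, and nothing is read from that count. Over all genes tested, 0.958% passed and 9.35% had an unadjusted p under 0.05. Of 19 genes of LPL maturation and control, 15 were tested, 0 rose and 0 fell (smallest edgeR adjusted p = 0.310, and 3 genes at an unadjusted p under 0.05), and the median log2 fold change was -0.0044 against -0.024 over all genes tested. SEL1L, which with LMF1 helps LPL leave the endoplasmic reticulum, was at 155 and 143 CPM in WT, and 159 and 145 CPM in the knockout libraries. LMF1, the lipase maturation factor, had 44 and 38 counts in WT, against 0 and 30 in the knockout (log2 fold change -0.58, adjusted p = 0.831). ANGPTL4, the secreted inhibitor of LPL and a PPAR target, was at 37.1 and 25.6 CPM in WT, and 53.0 and 29.4 CPM in the knockout libraries (0.09, adjusted p = 0.982). The LPL cofactor gene APOC2 and the inhibitor gene APOC3 had 0 counts in all 4 libraries. APOC2 shares 729 of its 1316 exonic bases with APOC4-APOC2 on the same strand. Reads of APOC2 may therefore have been dropped or counted for that gene, and its 0 counts do not show absence. The list genes of smallest adjusted p were HSPG2, which encodes the heparan sulfate proteoglycan perlecan (0.60, SE 0.22, adjusted p = 0.310), and the proprotein convertase genes PCSK5 (1.51, SE 0.58, adjusted p = 0.329) and PCSK6 (-1.72, SE 0.74, adjusted p = 0.435). Without the shallow GFI1-KO replicate 1, HSPG2 passed the threshold (0.75, adjusted p = 0.00947), but there the knockout is 1 library, the spread comes from the WT libraries alone, and 373 genes of the table passed in place of 109. HSPG2 shares 2121 exonic bases with a gene on the other strand, and PCSK6, HILPDA, PNPLA3, DAGLA, VLDLR and LRP1 also share exons with annotated neighbours.

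Of 101 genes tested in the wider handling of fatty acids, 1 was called. The 9 pathway lists hold 139 genes, of which 18 had 0 counts in all libraries and 20 more fell below the filter. The gene called was APLN, and 100 did not pass; the share of 0.990% is close to the 0.958% of all genes tested. At an unadjusted p under 0.05 there were 12, or 11.9%, against 9.35% of all genes tested, and DESeq2 called 0 of the pathway genes. APLN encodes apelin, a peptide of endothelial tip cells that is also known to act on fatty acid transport across muscle endothelium. It was at 6.70 and 17.6 CPM in WT, and 13.2 and 64.1 CPM in the knockout libraries (log2 fold change 2.12, SE 0.45, adjusted p = 0.0359). The groups overlapped, since GFI1-KO replicate 1 lay between the WT libraries, and without GFI1-KO replicate 2 the value was 0.12 (adjusted p = 0.976). Leaving out WT replicate 1 also ended the APLN call (adjusted p = 0.168). The receptor gene APLNR was at 1218 and 979 CPM in WT, and 961 and 1356 CPM in the knockout libraries.

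Among the other lipases, 9 of 13 genes were tested and 0 were called by edgeR (0 at an unadjusted p under 0.05), with a median of 0.12. LIPA, the lysosomal acid lipase, was at 59.4 and 41.5 CPM in WT, and 59.6 and 60.5 CPM in the knockout libraries, and PNPLA2, the adipose triglyceride lipase, at 48.7 and 57.9 CPM and 79.5 and 53.0 CPM. The monoacylglycerol lipase gene MGLL stayed below the filter with 6, 4, 0 and 25 counts, and was called without GFI1-KO replicate 1 (log2 fold change 2.33, adjusted p = 0.0458), where the 25 counts of 1 knockout library stand against the spread of the WT libraries alone. HILPDA, PNPLA3 and DAGLA had the smallest adjusted p of the list (0.681, 0.748 and 0.804). For HILPDA, a hypoxia-induced inhibitor of PNPLA2, the log2 fold change was -0.93 (SE 0.54), on 26 and 31 counts in WT, against 0 and 16 in the knockout.

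Of 20 other transporter, binding and acyl-CoA synthetase genes, 10 were tested and 0 were called by edgeR (2 at an unadjusted p under 0.05; median 0.07). The liver-type transporter gene SLC27A5 had the smallest adjusted p (log2 fold change -2.04, SE 0.67, adjusted p = 0.202). SLC27A5 counts were 24 and 24 in WT and 0 and 6 in the knockout, and the gene shares 1131 exonic bases with ZNF446 on the other strand. GOT2, the mitochondrial aspartate aminotransferase that was also described as a plasma membrane fatty acid binding protein, was at 170 and 181 CPM in WT, and 72.9 and 131 CPM in the knockout libraries (-0.60, SE 0.25, adjusted p = 0.434). The acyl-CoA synthetase genes ACSL3 and ACSL4, which trap fatty acids as thioesters, had log2 fold changes of 0.09 and 0.06. SLC27A1, the muscle and fat transporter, had -0.43 (SE 0.43, adjusted p = 0.885).

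Of 11 lipoprotein receptors, 9 were tested and 0 were called by edgeR, 1 having an unadjusted p under 0.05, with a median of 0.33. VLDLR, which binds triglyceride-rich particles next to LPL, was at 3.13 and 1.68 CPM in WT, and 6.62 and 6.68 CPM in the knockout libraries (log2 fold change 1.46, SE 0.70, adjusted p = 0.534); the first GFI1-KO value is 1 count. SCARB1, the receptor for high-density lipoprotein, was at 68.8 and 75.5 CPM and at 39.7 and 51.2 CPM (-0.55, SE 0.27, adjusted p = 0.550). For LRP1, a large receptor that also binds LPL, the value was 0.38 (SE 0.22, adjusted p = 0.680).

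The regulators of endothelial fatty acid transport held 13 tested genes of 14, with a median of 0.10 and APLN as the call. VEGFB, a ligand of FLT1 and NRP1 that has been tied to fatty acid uptake, was at 39.7 and 24.3 CPM in WT, and 26.5 and 14.2 CPM in the knockout libraries (log2 fold change -1.02, SE 0.42, adjusted p = 0.396). NRP1 was at 321 and 356 CPM in WT, and 450 and 529 CPM in the knockout libraries (0.56, SE 0.21, adjusted p = 0.335). NOTCH1, the receptor gene of endothelial Notch signalling, had 0.36 (adjusted p = 0.682). The MEOX2 and TCF15 pair, known to drive Cd36 and Lpl in heart endothelium of mice, was scarce: MEOX2 had 0, 0, 0 and 4 counts and TCF15 had 13, 10, 0 and 13.

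Partner factors of PPARG were present, while PPARG itself had few counts and did not pass the low-count filter. Of 14 PPAR and RXR factors and cofactors, 11 were tested and 0 were called by edgeR (0 at an unadjusted p under 0.05; median 0.03). PPARD was at 74.1 and 68.8 CPM in WT, and 53.0 and 70.3 CPM in the knockout libraries, and RXRA, the dimer partner, at 71.4 and 72.6 CPM and 72.9 and 85.5 CPM. The smallest adjusted p of the list were those of PPARGC1B (-0.52, adjusted p = 0.852), NCOA1 (0.25, 0.898) and PPARA (-0.42, 0.909). Of 12 PPAR target genes, 8 were tested and 0 were called (1 at an unadjusted p under 0.05; median 0.01). PLIN2, the lipid droplet coat protein, was at 215 and 182 CPM in WT, and 59.6 and 154 CPM in the knockout libraries (log2 fold change -0.63, SE 0.28, adjusted p = 0.484). Both GFI1-KO values lay below both WT values, and without GFI1-KO replicate 2 the value was -1.72 (adjusted p = 0.00958), resting on the 9 counts of the shallow library, the 1 knockout library of that fit, with the spread taken from WT alone. The next PPAR targets were ACADM (0.34, adjusted p = 0.810) and ACOT1 (-0.84, adjusted p = 0.852).

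Of the storage and oxidation genes tested, 0 passed the edgeR test, where 0.958% of all genes tested did. Of 21 lipid droplet and triglyceride synthesis genes, 13 were tested and edgeR called 0 (1 at an unadjusted p under 0.05; median 0.08). Of 20 mitochondrial oxidation genes, 17 were tested and edgeR called 0 (2 at an unadjusted p under 0.05; median -0.09). ACAA2, the last thiolase of the oxidation spiral, was at 77.7 and 73.4 CPM in WT, and 53.0 and 45.8 CPM in the knockout libraries (log2 fold change -0.68, SE 0.27, adjusted p = 0.357). CPT1C, a brain-type relative of the carnitine palmitoyltransferases, was at 17.4 and 8.81 CPM and 26.5 and 27.2 CPM (1.05, SE 0.42, adjusted p = 0.377). CPT1A, the gate of mitochondrial fatty acid entry, had 12 and 5 counts in WT, against 0 and 2 in the knockout and fell below the filter. PLIN3 (-0.37, adjusted p = 0.815) and LPIN3 (-0.57, adjusted p = 0.835) followed PLIN2 among the storage genes. ACAA2 shares exons with AC090227.1 on the same strand. A p above the threshold does not show that these genes were at equal levels.

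**Figure D3:**
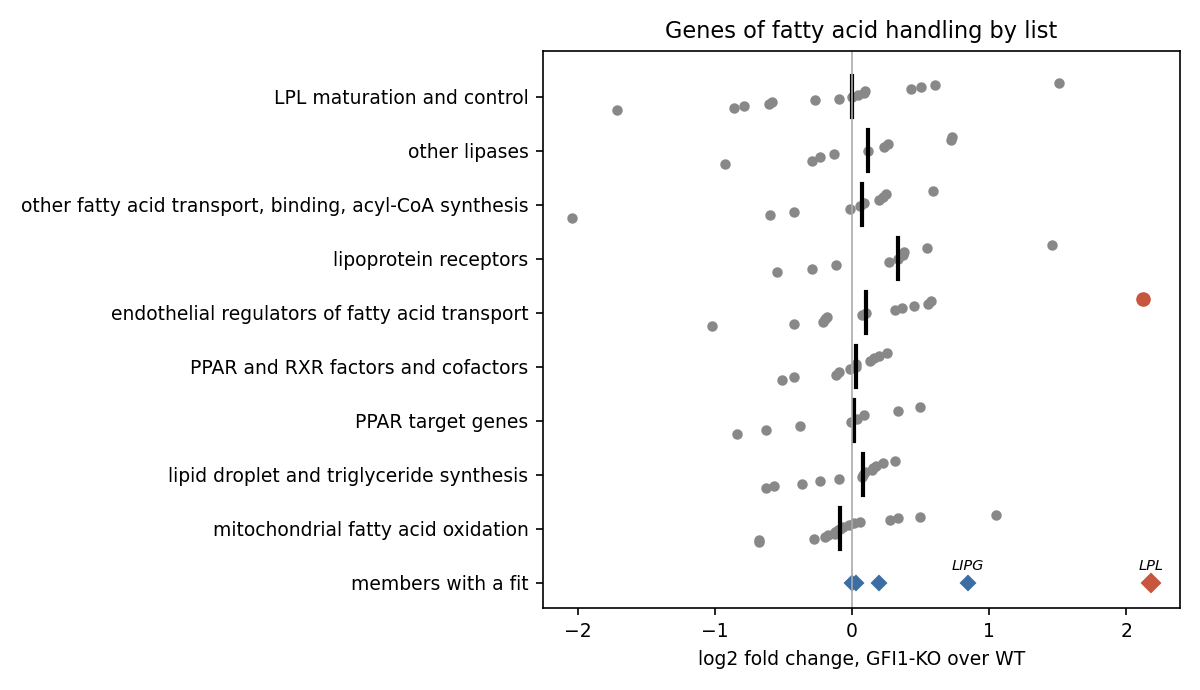
Log2 fold change, GFI1-KO over WT, of each tested gene of the 9 pathway lists (points), with the median of each list as a black bar and called genes in red; the lowest line shows the 5 members with a fit as diamonds. The list medians lie between -0.09 and 0.33, APLN is the red point at 2.12, and LPL lies at 2.18.

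The genes nearest to LPL in pattern were TNFSF10, VIPR2, TMEM158, CBLN1 and FOXC1. Nearness was the root mean square difference of log2(CPM + 1), after subtracting each gene's mean, over the 4 libraries, for the 11379 other tested genes; it was 0.19 for TNFSF10 and 0.34 for FOXC1, against a median of 1.34 over all genes. TNFSF10, which encodes the death ligand TRAIL, was at 8.93 and 21.4 CPM in WT, and 59.6 and 68.1 CPM in the knockout libraries. TNFSF10 thus showed the same split between the WT libraries as LPL, with replicate 2 above replicate 1. FOXC1, a forkhead transcription factor gene, was at 0.893 and 7.13 CPM in WT, and 26.5 and 28.5 CPM in the knockout libraries. VIPR2, a receptor for vasoactive intestinal peptide, shares 2021 exonic bases with LINC00689 on the other strand. It had 1 and 6 counts in WT, against 1 and 20 in the knockout. TMEM158 had 0 and 5 against 1 and 11, and CBLN1 had 2 and 18 against 2 and 64. In GFI1-KO replicate 1 these 3 genes thus rest on 1, 1 and 2 counts, below the floor of 3. With 4 libraries, 2 of each genotype, any gene with a like difference between genotypes and between the WT libraries comes near LPL. LIPG ranked 551 by this measure, SLC27A4 3750, FABP5 4490 and SLC27A3 6541.

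**Figure D4:**
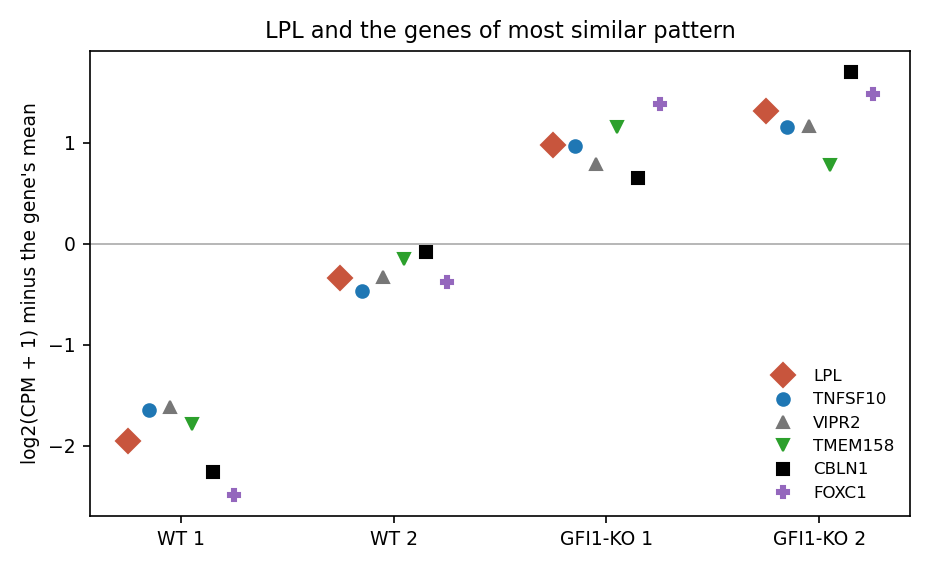
Level of LPL and of the 5 genes nearest to it in each library, as log2(CPM + 1) minus the gene's own mean over the 4 libraries; each symbol is a gene. All 6 genes have WT replicate 1 lowest, WT replicate 2 next and both GFI1-KO libraries highest.

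Of the 12 endothelial markers, 1 was called by edgeR, where 0.958% of all genes tested were called. At an unadjusted p under 0.05 there were 6 of the 12, against 9.35% of all genes tested. Of these markers, 11 had a log2 fold change above 0, against 47.5% of all genes tested. The median over the 12 was 0.50, against -0.024 over all genes tested. Both GFI1-KO libraries lay above both WT libraries for 9 of the 12, against 18.6% of all genes tested. The marker called was EMCN, which encodes endomucin (2.38, edgeR adjusted p = 0.00959), while PECAM1 lay lower in both GFI1-KO libraries. Other cell types that make LPL, CD36, FABP4 or PPARG were looked for by their markers. Of 6 adipocyte markers, 4 had 0 counts in all libraries, including LEP, and the list summed to 0 and 2 counts in WT, against 0 and 0 in the knockout. Of 10 macrophage markers, C1QA, C1QB and C1QC had 0 counts in all libraries and CD14 had 0, 0, 1 and 1. CD68 had 22 and 19 counts in WT, against 1 and 19 in the knockout. LYZ had 2 and 4 against 1 and 8, and AIF1 4 and 4 against 0 and 14. CD163 had 1 and 3 against 0 and 1, and CSF1R 1 and 2 against 0 and 3. The summed macrophage markers were 98.2 and 88.1 CPM in WT, and 132 and 178 CPM in the knockout libraries, most of it MRC1, which some endothelia also make (84.8 and 74.7 against 113 and 158 CPM; log2 fold change 0.86, adjusted p = 0.135). Without MRC1 the other 9 summed to 13.4 and 13.4 CPM in WT, and 19.9 and 20.5 CPM in the knockout libraries, on 30, 32, 3 and 46 counts. Cardiomyocyte markers summed to 95.1 and 64.2 CPM in WT, and 79.5 and 91.7 CPM in the knockout libraries, most of it NKX2-5, and mesenchymal and smooth muscle markers to 202 and 176 CPM and 185 and 173 CPM, so both lists overlapped between genotypes. Hepatocyte and endoderm markers summed to 9.38 and 9.65 CPM in WT, and 13.2 and 20.5 CPM in the knockout libraries, with ALB and AFP at 0 in all libraries. Most of the knockout sum was APOB (4.47 and 6.71 against 13.2 and 18.2 CPM), on 2 counts in GFI1-KO replicate 1. APOA1 went the other way, at 4.91 and 2.94 against 0 and 1.78 CPM. Blood markers summed to at most 52.9 CPM in WT and to 0 and 8.01 CPM in the knockout, with PTPRC at 0 in all libraries. Both WT sums lay above both knockout sums. Of the 12 blood markers, 3 were tested and all 3 were lower in the knockout: SPN (log2 fold change -1.62), ITGA2B (-2.98) and KLF1 (-2.66). Their median was -2.66, against -0.024 over all genes tested. All 3 had an unadjusted p under 0.05, and edgeR called 0 (smallest adjusted p = 0.0790). Each had 0 counts in GFI1-KO replicate 1, where the floor is 19.9 CPM. Pluripotency markers summed to 748 and 779 CPM in WT, and 603 and 569 CPM in the knockout libraries, most of it LIN28A, with NANOG at 0. The part of any of these cell types in the LPL difference was not tested.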

How the data were processed

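RNA was measured in 4 libraries, 2 WT and 2 GFI1-KO, made with the Illumina TruSeq kit from total RNA per the labels' protocols. The deposited values are whole-number read counts, 1 column a library, without normalization. The submitters' processing notes name HTSeq 0.6.0, HISAT2 2.0.4, DESeq 1.18.1 and SAMtools 1.3.1, in no order, with build GRCh38 (hg38). These sources do not give the annotation version, strand setting or read filters. Without the strand setting, reads of overlapping and antisense genes cannot be told apart.

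Of 19912 identifiers, 19902 matched GENCODE 29, the source of symbols, coordinates and exon lengths. Promoter sequences are RefSeq's (GRCh38.p14). Counts were tested with edgeR 4.0.16 in R 4.3.3 (TMM, filterByExpr, glmQLFit and glmQLFTest with genotype as the term), with Benjamini-Hochberg adjustment over all 11380 tested genes at 0.05. The SE is the unshrunken log2 fold change over the root of F. Intervals are exact at 95% and cover counting error only, since reads carry no molecular identifiers. Groups came from the sample titles. The same-numbered libraries were not treated as pairs, since the labels name no shared culture. Alternatives were DESeq2 1.42.0, limma-voom (limma 3.58.1), 3 scalings, 2 filters, the newer dispersion, each library left out in turn (then 1 genotype has 1 library, assumed to vary like the other genotype's 2) and a replicate block. The scripts were tested on simulated data.

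Members and lists were chosen with earlier results of these data known. The text names all 10 members, called genes and up to 3 further genes of smallest adjusted p per pathway list, and the 5 genes nearest to LPL. Further list genes (such as SEL1L, LMF1, ANGPTL4, LIPA, MGLL and CPT1A) were named after their values were seen, for their roles.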

Additional observations from a re-analysis of the deposited data

How the results depend on the processing

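LPL was selected on this comparison, so its refits on the same libraries add no independent support. It passed the threshold in all 13 alternatives, 4 of them with 1 library in a genotype, with log2 fold changes from 1.57 (without WT replicate 1) to 3.24 (without WT replicate 2) and adjusted p up to 0.0460 (newer dispersion). With DESeq2 it was 2.13 (adjusted p = 0.0149), and with the replicate block 2.06 (adjusted p = 3.8e-10). SLC27A3, at 0.20 in the full fit, was at 0.53 without WT replicate 1 and turned to -0.11 without WT replicate 2 and to -0.30 without GFI1-KO replicate 2. The number of genes called over the whole table was 109 and became 31 with DESeq2, 58 with upper-quartile scaling, 72 with library totals alone, 305 without the low-count filter, 50 at a mean of at least 5 CPM, 58 with the newer dispersion and 327 with the replicate block. It ran from 62 (without WT replicate 1) to 373 (without GFI1-KO replicate 1) when a library was left out, and was 274 without GFI1-KO replicate 2. The share of calls that were higher went from 80.7% to 70.8% without the filter, 72.8% with the block, 71.8% without GFI1-KO replicate 1 and 67.9% without GFI1-KO replicate 2; the causes were not tested. Of the pathway genes, 1 was called, and 0 with DESeq2, upper-quartile scaling, library totals alone, a mean of at least 5 CPM or the newer dispersion; with a library left out the number ran from 0 to 3. It was 1 without GFI1-KO replicate 2, but that gene was PLIN2, not APLN. The deviations of same-numbered libraries from their group means had a correlation of 0.11 over 11380 genes, and with 2 pairs this does not settle a pairing. The depth of GFI1-KO replicate 1 limits CD36, FABP3, PPARG and LIPG: there 1 count is worth 6.62 CPM.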
